A study of Mus musculus with 8 samples.

Results

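Somatostatin (Sst), cortistatin (Cort), neuropeptide Y (Npy), vasoactive intestinal peptide (Vip), corticotropin-releasing hormone (Crh), tachykinin 2 (Tac2), gastrin-releasing peptide (Grp) and cholecystokinin (Cck) are 8 neuropeptide genes used by neurons of the mouse cortex. Their rows were taken from a table of read counts by gene symbol, 8 of the 54532 genes listed, and all 8 were among the 17195 genes that passed a filter on low counts. The genes were chosen because several had been seen at a lower level in the mutant mice in these same counts. The difference between genotypes is therefore given for them as a description and not as a test. Their place in the fit across all genes is counted beside the share of all genes, and again across other fits in the last section. Nothing is read from either count. Cortical RNA was sequenced from 4 PS19 mice (m677, m668, m665 and m659) and 4 Adrb1-A187V;PS19 mice (m671, m661, m660 and m658), with 1 library per mouse. Both groups were 8-mo-old C57BL/6 mice, singly housed, and, per the methods, mice were male unless otherwise noted. Both carried the PS19 transgene, which expresses a mutant (P301S) human tau under control of the promoter of the prion gene. The Adrb1-A187V;PS19 mice (Adrb1+/m;PS19 in the labels) also carried 1 knock-in copy of a mutated β-adrenergic receptor gene, so no mouse without the tau transgene entered the comparison. The libraries held between 14653222 and 21223754 counts. Whole cortical tissue was measured, so fewer cells of a type and less RNA per cell cannot be told apart.

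Neuropeptides are made as long precursors, cut by convertases in dense-core vesicles, and released to act on G protein-coupled receptors of nearby cells. In the cortex, Sst and Cort mark overlapping groups of inhibitory interneurons, Npy is found in part of these and in neurogliaform cells, and Vip marks interneurons that mainly inhibit other interneurons. Crh, Tac2 and Grp are found in subgroups of the Vip cells, among others. Cck is made both by a class of interneurons and by many excitatory neurons. The β-adrenergic receptors raise cyclic AMP, which acts on transcription through CREB and the DNA element TGACGTCA, a sequence known from studies of the somatostatin gene.

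The start regions of these genes are shown for this element. RefSeq promoters (250 bases before to 50 after the start site, GRCm38.p6) were matched for 6 of the 8 genes, and Crh and Grp had no entry. The full element TGACGTCA was in 588 of 32851 promoters (1.79%) and, among the 6 genes, in that of Sst alone, 48 bases before the start site. The 5-base part TGACG, searched on both strands and contained in the full element, was in 6837 promoters (20.8%) and in 4 of the 6 genes, Sst, Cort, Vip and Cck. It was not found in the windows of Npy and Tac2. The stretches of the 4 genes follow, 5′ to 3′ on the strand of the gene, with the element or its 5-base part in capitals (CGTCA where it lies on the other strand).
Sst, chr16:23890874-23890903, minus strand: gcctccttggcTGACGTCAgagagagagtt
Cort, chr4:149126764-149126883, minus strand: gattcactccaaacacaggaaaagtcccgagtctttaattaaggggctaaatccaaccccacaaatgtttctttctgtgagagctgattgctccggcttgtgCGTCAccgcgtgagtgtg
Vip, chr10:5639098-5639217, plus strand: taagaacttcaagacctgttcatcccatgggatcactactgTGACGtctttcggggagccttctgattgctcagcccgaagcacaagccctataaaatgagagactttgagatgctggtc
Cck, chr9:121495695-121495814, minus strand: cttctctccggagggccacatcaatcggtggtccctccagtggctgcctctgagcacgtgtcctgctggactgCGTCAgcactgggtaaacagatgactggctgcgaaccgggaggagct
The parts in capitals start 18 bases before the start site in Cort, 79 in Vip and 47 in Cck. A match is a description of the letters and not of a bound site. The Sst stretch was kept to 30 bases because the deposited gene model starts 114 bases upstream of the RefSeq start, and the other 3 models start at the same base in both.

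All 8 neuropeptide genes had a lower fitted level in Adrb1-A187V;PS19 vs. PS19 mice, with log2 fold changes from -0.50 (Grp) to -0.09 (Sst) and a median of -0.19. Over all genes tested, the median log2 fold change was 0.00046 and 49.8% of the genes were lower. In edgeR's quasi-likelihood test, 5 of the 8 (Cort, Npy, Vip, Grp and Cck) had an unadjusted p-value under 0.05, and Sst, Crh and Tac2 did not. Among the 17195 genes, 481 did so (2.80%), 236 of them lower (1.37%) and 245 higher (1.42%). With no difference in any gene, a share of about 0.05 would be expected under this threshold, more than was seen. No gene tested had an adjusted p-value under 0.05 in edgeR (0%), where the smallest was 0.9996, or in DESeq2 or limma-voom. None of the 8 genes had every mutant mouse below every PS19 mouse in TMM-scaled counts per unit of library size (CPM), which 172 genes did (1.0%). Nothing is read from these counts for the 8 genes, because the same contrast chose them.

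**Figure D1:**
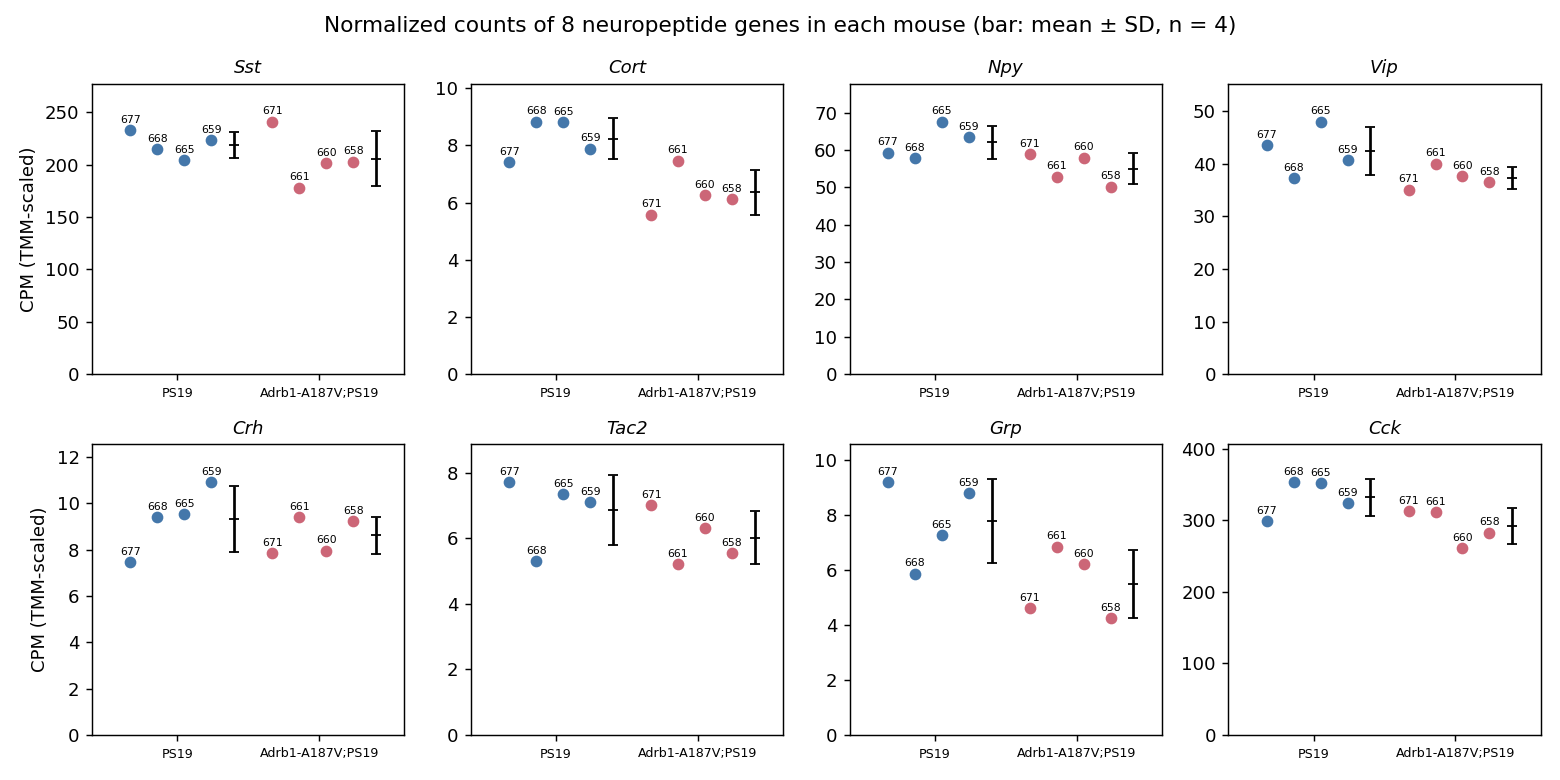
Each point is 1 mouse, with its number, and shows the normalized counts (CPM, vertical axis from 0) of 1 gene in PS19 (blue) and Adrb1-A187V;PS19 mice (red), with the mean ± SD at the right of each group (n = 4). The genotypes overlap in all 8 panels, and the mean of the mutant mice is the lower one in each.

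Sst (ENSMUSG00000004366, GRCm38 chromosome 16, 23889573 to 23890958) had 233, 215, 204 and 224 CPM in PS19 mice m677, m668, m665 and m659, and 241, 178, 201 and 203 CPM in Adrb1-A187V;PS19 mice m671, m661, m660 and m658. The highest and the lowest values of all 8 mice were both in mutant mice, m671 and m661, and the other 2 mutant mice lay just under the lowest PS19 mouse. The means were 218.9 ± 12.2 and 205.8 ± 26.2 CPM (SD, n = 4 each), a log2 fold change of -0.09 (standard error, SE, 0.08). Without m671 the log2 fold change was -0.17, and without m661 it was -0.03. Cort (ENSMUSG00000028971, chromosome 4, 149125034 to 149126763) encodes a peptide related to somatostatin that binds the same receptors. It had 7.41, 8.84, 8.83 and 7.89 CPM in the PS19 mice and 5.58, 7.47, 6.27 and 6.11 CPM in the mutant mice, in the same order of mice. The groups overlapped by 1 pair of mice, m661 at 7.47 and m677 at 7.41. The means were 8.24 ± 0.709 and 6.36 ± 0.799 CPM, 22.7% lower, with a log2 fold change of -0.37 (SE 0.13). The log2 ratio of Cort to Sst CPM within a mouse was -4.73 ± 0.20 in PS19 and -5.02 ± 0.35 in mutant mice (SD, n = 4).

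The receptors that Sst and Cort share were measured in the same libraries. Sstr1 (-0.08, SE 0.09), Sstr2 (0.04, SE 0.14), Sstr3 (-0.08, SE 0.11) and Sstr4 (-0.05, SE 0.13) each had a log2 fold change smaller than its SE. Sstr5 had between 5 and 26 counts in a mouse and a log2 fold change of 0.41 (SE 0.44). No gene of these 5 passed the unadjusted threshold.

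Npy (ENSMUSG00000029819, chromosome 6, 49822710 to 49829507) had 59.3, 57.8, 67.6 and 63.4 CPM in PS19 mice m677, m668, m665 and m659. The mutant mice m671, m661, m660 and m658 had 58.8, 52.8, 57.9 and 50.2 CPM. PS19 mouse m668 lay within the mutant range, and the other 3 PS19 mice were above all mutant mice. The means were 62.0 ± 4.40 and 55.0 ± 4.13 CPM (SD, n = 4 each), a log2 fold change of -0.18 (SE 0.07). Its receptors had log2 fold changes of -0.12 (SE 0.10) for Npy1r, 0.40 (SE 0.29) for Npy2r and 0.09 (SE 0.17) for Npy5r, none with an unadjusted p-value under 0.05. Npy4r and Npy6r, with no more than 3 counts per mouse, were not tested.

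Vip (ENSMUSG00000019772, chromosome 10, 5639218 to 5647617) had 43.6, 37.3, 48.1 and 40.8 CPM in the PS19 mice, in the order above, and 35.1, 40.0, 37.7 and 36.5 CPM in the mutant mice. The lowest PS19 mouse, m668, lay within the range of the mutant mice and the other 3 above it. The means were 42.4 ± 4.56 and 37.3 ± 2.09 CPM, a log2 fold change of -0.19 (SE 0.08). The receptor Vipr1 had a log2 fold change of -0.08 (SE 0.10) and Vipr2, with at most 36 counts, one of -0.29 (SE 0.50).

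Of the 3 peptides found in subgroups of the Vip cells, Grp had the largest difference and Crh the smallest. Grp (ENSMUSG00000024517, chromosome 18, 65872820 to 65886579) had 9.19, 5.87, 7.27 and 8.79 CPM in the PS19 mice and 4.62, 6.85, 6.21 and 4.24 CPM in the mutant mice. Mice of both genotypes spread widely, with a coefficient of variation of 19.5% in PS19 and 22.8% in mutant mice, where counting alone gives 9.22%. The means were 7.78 ± 1.52 and 5.48 ± 1.25 CPM, 29.3% lower, with a log2 fold change of -0.50 (SE 0.19). Crh (ENSMUSG00000049796, chromosome 3, 19693401 to 19695396), known best for starting the hormonal stress response, had 7.47, 9.39, 9.53 and 10.9 CPM in the PS19 mice and 7.86, 9.39, 7.95 and 9.23 CPM in the mutant mice. No mutant mouse was below the lowest PS19 mouse, m677. The means were 9.32 ± 1.41 and 8.60 ± 0.813 CPM, a log2 fold change of -0.11 (SE 0.13). Tac2 (ENSMUSG00000025400, chromosome 10, 127724478 to 127731768), the precursor of neurokinin B, had 7.72, 5.31, 7.36 and 7.11 CPM in the PS19 mice and 7.02, 5.22, 6.33 and 5.55 CPM in the mutant mice. PS19 mouse m668 and mutant mouse m661 were the 2 lowest. The means were 6.88 ± 1.07 and 6.03 ± 0.807 CPM, a log2 fold change of -0.20 (SE 0.16).

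The receptors and the binding protein of these 3 peptides ranged from 5 counts in a mouse (Grpr) to 477 (Crhr1). Grpr had between 5 and 27 counts in a mouse and a log2 fold change of 0.09 (SE 0.44). Crhr1 had a log2 fold change of -0.09 (SE 0.12), Crhr2 one of -0.27 (SE 0.32) and Crhbp, which binds the Crh peptide outside the cell, one of -0.18 (SE 0.10). Tacr3, the receptor of neurokinin B, had 2.46 ± 0.283 CPM in PS19 and 3.75 ± 1.46 CPM in mutant mice (SD, n = 4), a log2 fold change of 0.59 (SE 0.26). It was the only 1 of the 16 receptor and binding protein genes tested with an unadjusted p-value under 0.05, and it lost this in 8 of the 16 other fits, limma-voom and the fits without m677, m668, m665, m659, m671, m660 or m658. Without m658 its log2 fold change was 0.32.

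Cck (ENSMUSG00000032532, chromosome 9, 121489824 to 121495694) had 298, 353, 352 and 324 CPM in PS19 mice m677, m668, m665 and m659 and 313, 312, 260 and 283 CPM in mutant mice m671, m661, m660 and m658. PS19 mouse m677 lay within the mutant range and the other 3 were above it. The means were 331.9 ± 26.0 and 291.8 ± 25.1 CPM (SD, n = 4 each), a log2 fold change of -0.19 (SE 0.07). Slc17a7, the vesicular glutamate transporter of excitatory neurons, had a log2 fold change of -0.19 (SE 0.07) too, and the log2 ratio of Cck to Slc17a7 CPM was -1.78 ± 0.13 in PS19 and -1.78 ± 0.016 in mutant mice. This ratio is for Slc17a7 alone, as the 10 markers of excitatory neurons had log2 fold changes from -0.27 (Neurod6) to 0.13 (Rorb). Cckbr, the main Cck receptor of the brain, had a log2 fold change of -0.09 (SE 0.07) and Cckar, with at most 17 counts, was not tested.

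The sizes of these differences depended on single mice more than on the method. In the 8 other fits with all mice (DESeq2, limma-voom, another scaling, 2 other count filters, protein-coding genes alone, 1 surrogate variable and a term for the side of the first principal component), the log2 fold change of Cort stayed between -0.41 and -0.37 and that of Cck between -0.20 and -0.18. With 1 mouse left out, Cort had -0.31 without m671 and -0.46 without m661, and Cck had -0.13 without m660 and -0.23 without m677. Grp had -0.40 without m658 and -0.63 without m661. Crh had -0.03 without m659 and -0.21 without m677, and Vip had -0.12 without m665 and -0.24 without m668. Npy had -0.13 without m665 and -0.21 without m671, and Tac2 had -0.13 without m661 and -0.30 without m668. The sign was negative in all 16 fits for the 8 genes, which were chosen for it.

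**Figure D2:**
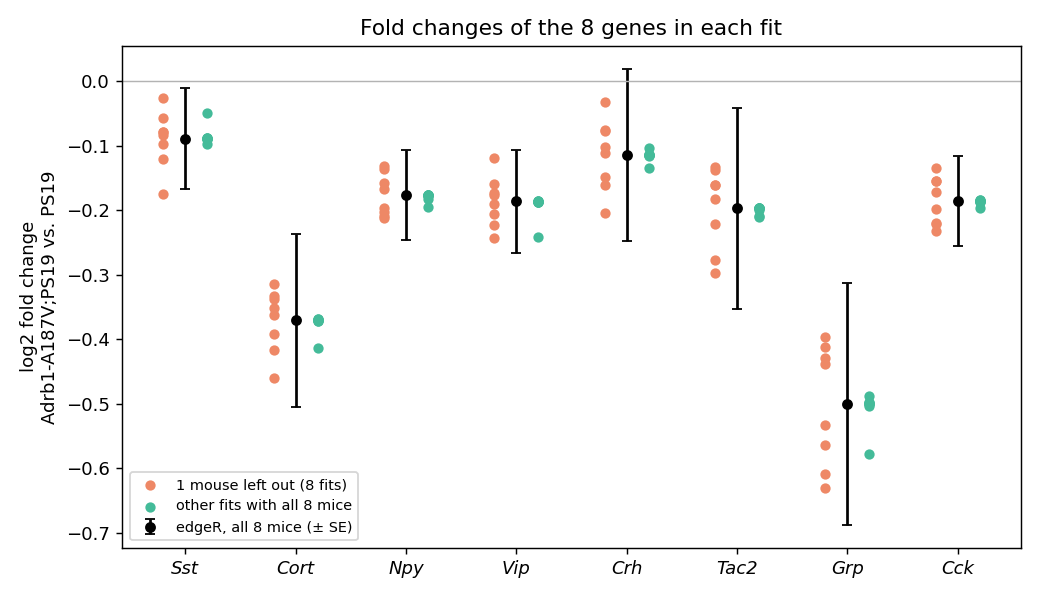
For each of the 8 genes, the log2 fold change (vertical axis) in the fit with all 8 mice is in black with its SE, the 8 fits that each leave out 1 mouse are in orange and the 8 other fits with all mice are in green. Every point is under 0, Cort between -0.46 and -0.31 and Grp between -0.63 and -0.40.

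The mice differed in how many of the 8 genes they had at a high level. PS19 mouse m659 was in the upper 4 of the 8 mice for all 8 genes and m665 for 7, and the mutant mice m660 and m658 were so for none. The PS19 mice m677 and m668 were in the upper 4 for 5 and 4 genes, and the mutant mice m671 and m661 for 4 each. The first principal component of all genes tested, which held 21.9% of the variance, split the mice across the genotypes. On its negative side were m677, m659, m660 and m658, with a level of Gfap, a gene of reactive astrocytes, between 748 and 838 CPM. On its positive side were m668, m665, m671 and m661, with 182 to 354 CPM of Gfap. Within each side, all 8 genes had a lower mean log2 level in the mutant mice, 2 mice of each genotype being compared. The genes were chosen as lower in these same 8 mice. The direction within the sides and the ranks above are therefore a description and not a separate observation. The log2 differences were between -0.79 and -0.08 on the negative side and between -0.44 and -0.02 on the positive side. The genotypes overlapped for Crh on the negative side, and for Sst, Npy, Vip, Tac2 and Grp on the positive side. The share of all genes that overlapped within a side was not counted, so nothing is read from this. Grp differed by -0.79 on the negative and by -0.21 on the positive side and Sst by -0.18 and by -0.02, a contrast between the sides that was not tested.

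The other genes of peptide signaling, 111 genes in 5 lists written with earlier results of these data known, were read from the same fit. Of these, 91 were tested and 10 had an unadjusted p-value under 0.05 (11.0%, beside 2.80% of all genes), 8 higher and 2 lower, with a median log2 fold change of -0.0030. None had an adjusted p-value under 0.05 in edgeR's test. The other peptide precursors were mixed in direction. Of 33 listed, 16 were tested, 10 were higher and 6 lower, and the 4 with an unadjusted p-value under 0.05 (Nts, Pdyn, Tac1 and Cartpt) were higher, with a median over the list of 0.08. Pdyn and Tac1 are also genes of striatal projection neurons, and all 7 striatal markers (median 0.32) and all 8 basal forebrain cholinergic markers (median 0.74) were higher in the same mice. The part of tissue makeup in the levels of these precursors was not tested. Nts, the neurotensin precursor, had 4.14 ± 1.57 CPM in PS19 and 7.17 ± 1.66 CPM in mutant mice (SD, n = 4), a log2 fold change of 0.81 (SE 0.26). Pdyn, the dynorphin precursor, had 35.2 ± 4.73 and 43.4 ± 6.56 CPM, a log2 fold change of 0.31 (SE 0.11). Without m659 or m658 the unadjusted p of Pdyn was no longer under 0.05. The 17 precursors not tested had too few counts, and Kiss1 had none.

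Of the 18 genes that process precursors or build dense-core vesicles, all were tested, 9 were higher and 9 lower, and the median log2 fold change was -0.01. Pcsk1, a convertase that cuts peptide precursors, had 67.9 ± 5.64 CPM in PS19 and 56.7 ± 4.33 CPM in mutant mice (SD, n = 4), a log2 fold change of -0.26 (SE 0.07). The highest mutant mouse, at 60.4 CPM, was above the lowest PS19 mouse, at 59.98 CPM. Its unadjusted p-value stayed under 0.05 in all 16 other fits. Vgf, a secreted granule protein and itself a peptide precursor, had 350.4 ± 34.0 and 304.7 ± 41.0 CPM, a log2 fold change of -0.20 (SE 0.09), and lost the threshold in 5 of 16 fits, with 1 surrogate variable and without m668, m659, m661 or m660. Pcsk2, the other neuronal convertase, had a log2 fold change of 0.0086 (SE 0.06), and Cpe, which trims the cut peptides, one of 0.04 (SE 0.06).

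The 33 genes that mark interneurons and their subgroups split into 18 higher and 15 lower, with a median of 0.02 on the log2 scale. Gad2, which makes GABA, had 247.2 ± 11.6 CPM in PS19 and 292.2 ± 30.3 CPM in mutant mice (SD, n = 4), a log2 fold change of 0.24 (SE 0.07), with no overlap between the genotypes. Its unadjusted p-value was under 0.05 in all 16 other fits. The share of all genes with every mutant mouse above every PS19 mouse was not counted. Nothing is therefore read from the lack of overlap of Gad2 or, below, of Crtc3. Slc32a1, the vesicular GABA transporter, had a log2 fold change of 0.18 (SE 0.07) and lost the threshold without m677, m665, m659 or m671. Lhx6, a factor of the lineage that holds the Sst cells, had one of 0.05 (SE 0.08), and the log2 ratio of Sst to Lhx6 CPM was 3.23 ± 0.025 in PS19 and 3.09 ± 0.27 in mutant mice. Adarb2, a gene of the lineage that holds the Vip cells, had a log2 fold change of 0.0019 (SE 0.09), and the log2 ratio of Vip to Adarb2 CPM was 0.98 ± 0.28 and 0.79 ± 0.10. The ranges of both ratios overlapped between the genotypes. Lhx6 and Adarb2 do not stand for the whole list. Its log2 fold changes ran from -0.27 (Htr3a, SE 0.15) to 0.66 (Sncg, SE 0.37), both with an unadjusted p-value above 0.05 in edgeR. For Htr3a, every mutant mouse was below every PS19 mouse, as for 172 of all genes tested (1.0%). Nothing is read from this.

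The 8 genes of the CREB family and its partners, which act on the element shown above, had a median log2 fold change of -0.04. Creb1 itself had one of -0.06 (SE 0.06). Crtc3, a CREB coactivator, had 18.8 ± 1.32 CPM in PS19 and 21.8 ± 1.24 CPM in mutant mice (SD, n = 4), a log2 fold change of 0.21 (SE 0.08) with no overlap. It lost the unadjusted threshold without m668, m665 or m660. Gad2 overlaps 2 genes on its own strand, Gm23636 and Mir3967. Slc32a1 and Crtc3 each overlap a gene on the other strand in the table, and the strand setting of the counting was not given in the sources used here, so part of their counts could belong to it. None of the 8 neuropeptide genes overlaps another gene.

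**Figure D3:**
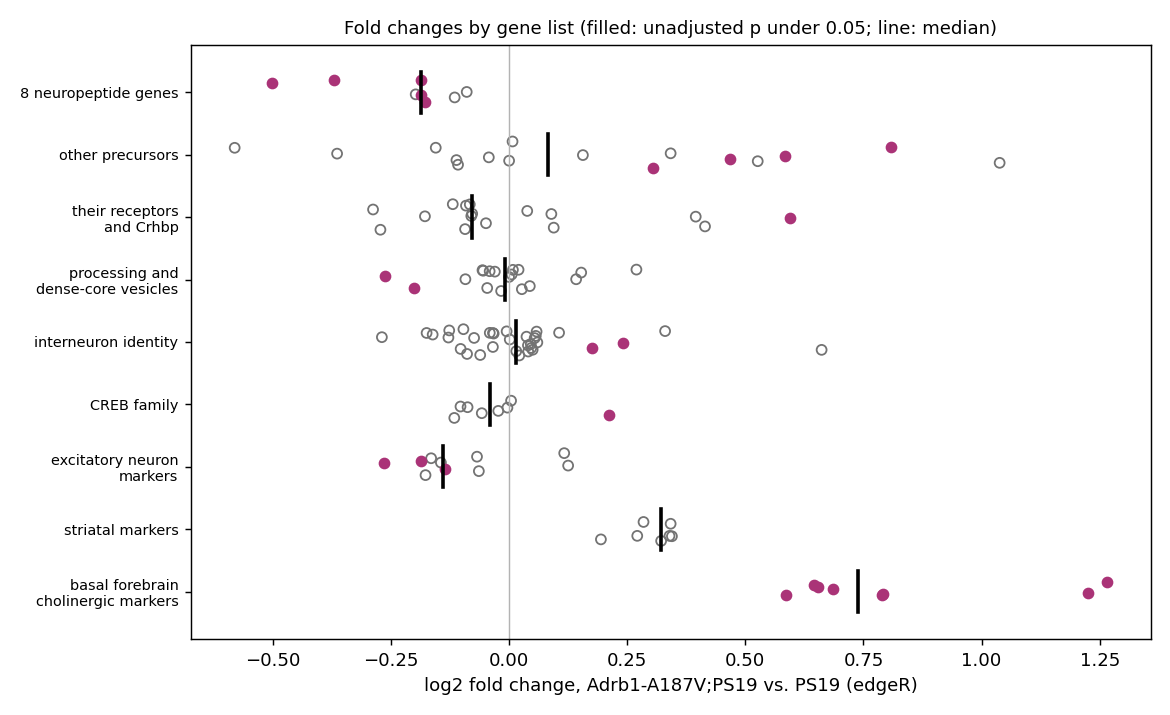
Each point is the log2 fold change of 1 gene in Adrb1-A187V;PS19 vs. PS19 mice (horizontal axis), by gene list, filled where the unadjusted edgeR p-value was under 0.05, with the list's median as a line. The 8 neuropeptide genes, chosen on this contrast, lie between -0.50 and -0.09, the other precursors spread from -0.58 to 1.04, and the basal forebrain cholinergic markers lie between 0.59 and 1.27.

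Markers of other cells and regions were read from the same fit. Of 10 markers of cortical excitatory neurons, 8 were lower and 3 had an unadjusted p-value under 0.05 (Slc17a7, Tbr1 and Neurod6), with a median log2 fold change of -0.14. Their summed level was 1580 to 1816 CPM in PS19 and 1439 to 1645 CPM in mutant mice. All 7 striatal markers were higher, none past the threshold, with a median of 0.32 and sums of 769 to 1567 and 798 to 1735 CPM. All 8 markers of basal forebrain cholinergic neurons were higher and past the unadjusted threshold, with a median of 0.74. Their sums of 18.2 to 36.7 CPM in PS19 and 38.4 to 54.8 CPM in mutant mice did not overlap. Of all genes tested, 1.42% were higher and 1.37% lower past this threshold. How often sums of other genes fail to overlap was not counted, so nothing is read from that. No defining marker of these 3 lists was at 0. The part of tissue makeup in the lower levels of the 8 neuropeptide genes, or in the levels of the genes of the 5 lists, was not tested. The median log2 fold change was 0.05 for 3 astrocyte markers, 0.03 for 3 microglia markers, -0.02 for 3 oligodendrocyte markers and -0.0035 for 3 endothelial markers. It was 0.11 for 5 thalamic, -0.32 for 3 dentate gyrus and 0.42 for 5 choroid plexus markers, with none of these past the threshold. Of 4 hypothalamic markers, 1 could be tested, with a log2 fold change of 0.52, and Hmx2 had no counts.

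The order of the 8 genes by level, which played no part in choosing them, was read per kilobase of gene length within each mouse. With the gene lengths of the deposited table, the means over the 8 mice were 294.6 ± 27.96 CPM per kilobase for Sst, 238.9 ± 24.5 for Cck and 103.3 ± 9.67 for Npy (SD, n = 8). These 3 genes held the first 3 places, in this order, in every mouse. Vip (11.7 ± 1.25) and Cort (10.8 ± 1.81) followed, and then Crh (6.79 ± 0.858), Grp (6.26 ± 1.68) and Tac2 (4.68 ± 0.717), all in CPM per kilobase. Neighbours were compared by a 2-sided exact permutation test that flips the sign of the log2 ratio in each of the 8 mice, with Benjamini-Hochberg adjustment over the 7 pairs. Sst over Cck, Cck over Npy, Npy over Vip and Cort over Crh held in 8 of 8 mice (adjusted p = 0.0137 each by the exact permutation test, from 0.0078, the smallest that 8 mice can give). The step from Npy to Vip was the largest, 8.83-fold. Grp was above Tac2 in 6 of 8 mice (1.31-fold, exact permutation test, adjusted p = 0.0438). Vip and Cort (1.10-fold, 7 of 8 mice, adjusted p = 0.100) and Crh and Grp (1.11-fold, 6 of 8 mice, adjusted p = 0.352) did not differ beyond their spread in the exact permutation test. The order of the means was the same with any 1 mouse left out, but not all calls were. Grp over Tac2 no longer passed the threshold without m677, m668, m665, m659, m661 or m660 (exact permutation test over 7 mice, adjusted p between 0.0729 and 0.0875). Crh was above Grp without m677 (adjusted p = 0.0438 by the same exact test), and Vip was above Cort without m668 (adjusted p = 0.0219 by the same exact test).

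The order depended on the length used. How the deposited length was set is not given in the sources used here. It was 3402 bases for Vip, 1305 for Cck, 1378 for Tac2 and 1059 for Grp, whose principal transcripts in GENCODE M21 have 1530, 783, 852 and 1319 bases, and the same for the other 4 genes. With the lengths of the principal transcripts, an alternative added after the data were seen, Cck (398.2 CPM per kilobase) was above Sst (294.6) in 8 of 8 mice, and Tac2 (7.57) was above Crh (6.79) and Grp (5.03). The step from Npy (103.3) to Vip (26.1) was then 3.97-fold, and 6 of the 7 neighbours differed by the exact permutation test, Tac2 and Crh being the exception (adjusted p = 0.242). Npy in the third place, Vip in the fourth and Cort in the fifth were common to both orders.

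**Figure D4:**
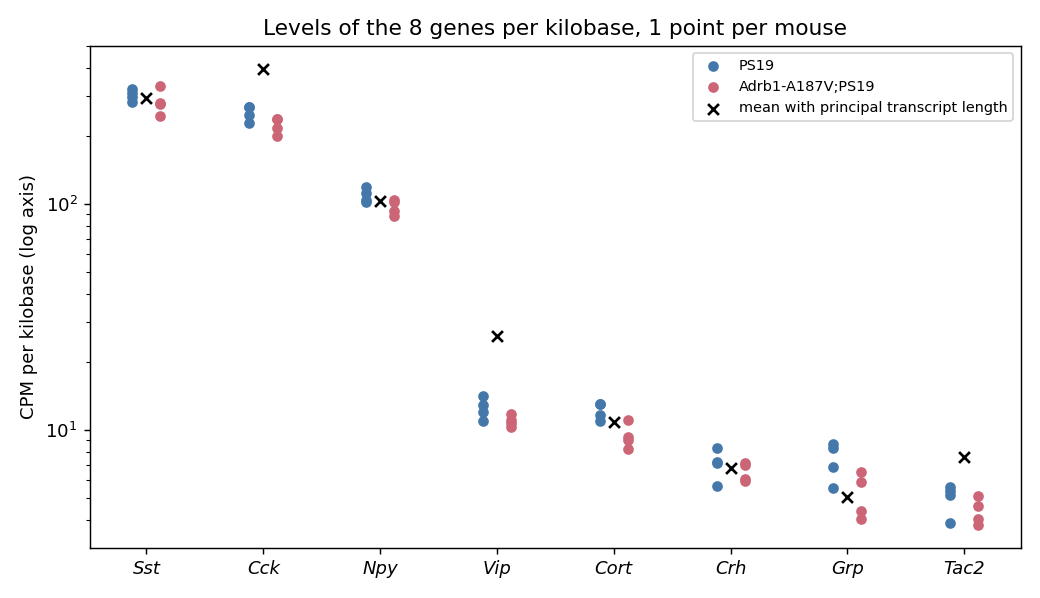
Each point is 1 mouse, PS19 in blue and Adrb1-A187V;PS19 in red, and the vertical log axis gives the level of each gene in CPM per kilobase of the deposited gene length, while a cross marks the mean over 8 mice with the principal transcript's length. By the deposited lengths, the lowest Npy value (88.7) is above the highest of the 5 genes to its right (14.1, Vip), and the crosses put Cck above Sst.

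The 8 genes were also compared with each other over the 8 mice, on the log2 CPM scale. The difference between genotypes, for which the genes were chosen, enters these values as measured. Of 28 pairs, 23 had a positive Pearson's r, with a median of 0.45, and with the mean of each genotype removed 14 were positive, with a median of 0.05. Removing the means of the 2 sides of the first principal component in their place left a median of 0.49. By the exact permutation test 3 pairs had an unadjusted p-value under 0.05, and none had an adjusted one over the 28 pairs, for r (smallest 0.318) or for Spearman's rho. Npy and Tac2 had r = 0.75 and rho = 0.86 (exact permutation p = 0.0324 and 0.0107, adjusted 0.318 and 0.150), r = 0.72 without the 2 mice farthest from the median of Npy, and r = 0.68 with genotype means removed. Vip and Grp had r = 0.74 and rho = 0.90 (exact permutation p = 0.0334 and 0.0046, adjusted 0.318 and 0.128), r = 0.91 without such 2 mice, and r = 0.54 with genotype means removed. Cort and Cck had r = 0.75 and rho = 0.74 (exact permutation p = 0.0341 and 0.0458, adjusted 0.318 and 0.321), r = 0.99 without such 2 mice and r = 0.47 with genotype means removed. Sst and Cort had r = -0.19 as measured and r = -0.93 with genotype means removed. Among the mutant mice, m671 had the most Sst and the least Cort, and m661 had the least Sst and the most Cort. Among the PS19 mice, m677 had the most Sst and the least Cort (7.41 CPM). The PS19 mouse with the least Sst, m665, had 8.83 CPM of Cort, just under the highest, 8.84 in m668. Without m671 and m661, the 2 mice farthest from the median of Sst, the r as measured was 0.33. The r with genotype means removed was not computed without these 2 mice.

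**Figure D5:**
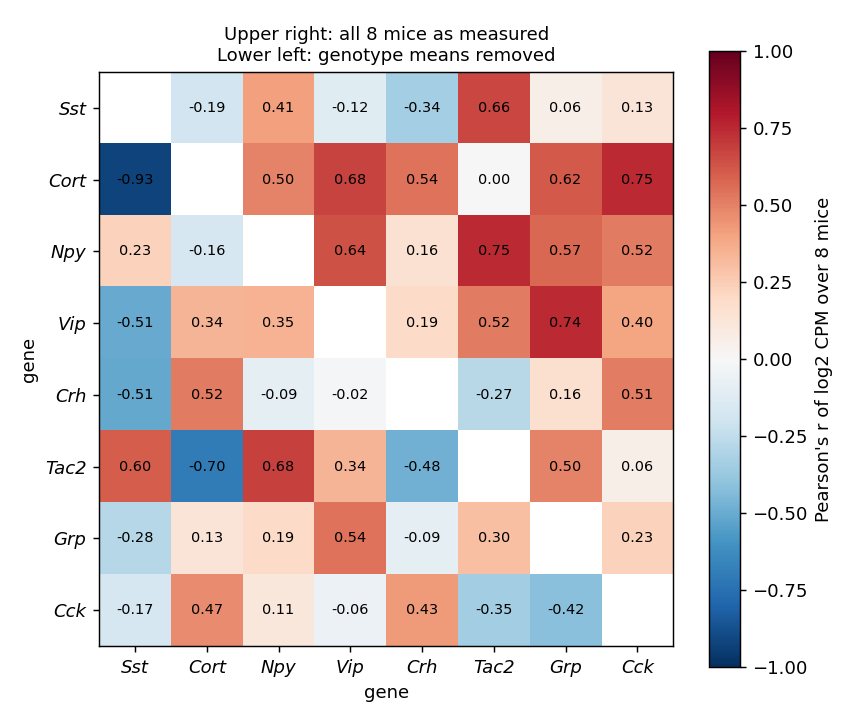
The colour and the number in each cell give Pearson's r of the log2 CPM of 2 genes over the 8 mice, as measured in the upper right and with the mean of each genotype removed in the lower left. The upper right is mostly positive (23 of 28), the lower left is mixed (14 of 28), and the lowest value is Sst with Cort at -0.93.

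The genes most like each of the 8 over the mice were read from r with genotype means removed, over 17194 other genes and 8 mice, as a description with no test. They were Ube2l3 and Rnd2 for Sst (r = 0.99 each), Ltbp1 (0.99) and Stxbp5l (0.98) for Cort, and Mpc1 and Gng10 for Npy (0.96 each). The level of Gng10 was low, with a mean of 0.74 CPM. For Vip they were Fut9 and the antisense gene 4833422C13Rik (0.98 each), for Crh Fam126a and Glce (0.98 each), and for Tac2 St3gal4 and Nkx6-2 (0.97 each). For Grp they were Shtn1 (0.99) and Uaca (0.98), and for Cck Slc9a9 and Zfp30 (0.99 each). None of the 8 neuropeptide genes was among the 2 closest of another, and Cort stood at place 17170 of 17194 for Sst. Fut9, Shtn1 and Zfp30 aside, these genes overlap another gene of the table, so part of their counts is uncertain.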

How the data were processed

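The authors extracted total RNA from cortex, sequenced paired-end libraries, aligned the reads to GRCm38 with HISAT2 2.0.5 and deposited featureCounts 1.5.0-p3 counts per gene without normalization, with gene names, coordinates and lengths. The strand setting and the treatment of reads with several matches are not given in the sources used here. From these counts, genes kept by filterByExpr (17195 of 54532) were scaled with TMM and compared in R 4.3.3 by the 2-sided quasi-likelihood test of edgeR 4.0.16, without covariates and with Benjamini-Hochberg adjustment, and each SE was the log2 fold change over the root of its F value. CPM are TMM-scaled, and log2 CPM for correlations and principal components used a prior count of 2. The processing was tested on simulated counts. Mice of 1 genotype differed by more than sampling noise (chi-square per degree of freedom 4.50 to 9.20), so each library counted once. Alternatives were DESeq2 1.42.0, limma 3.58.1 voom, DESeq2 size factors, a filter of 10 counts in each mouse or of 1 count in any, a fit of protein-coding genes, sva 3.50.0 with 1 surrogate variable, each mouse left out and, added after seeing the data, the side of the first principal component and another gene length.

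The members and lists were chosen with earlier results of these data known. Beside the 8 genes and their receptors, the genes named were, in each of the 5 lists, up to 2 higher and 2 lower with the smallest unadjusted p among those with one under 0.05, and the 2 most similar genes for each member. Pcsk2, Cpe, Lhx6, Adarb2, Htr3a, Sncg, Creb1, Slc17a7, Tac1, Cartpt, Tbr1, Neurod6 and Rorb were named outside this rule, after their values were seen. Labels gave each mouse's genotype. Per the methods, controls were littermates, but no litter is labelled, so the fits ignore litters that the groups may share.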

Additional observations from a re-analysis of the deposited data

How the results depend on the processing

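Genes past the unadjusted threshold of 0.05 numbered 481, and 1366 with no filter beyond 1 count, which tests 33614 genes and gives 66 an adjusted p-value under 0.05. With 1 mouse left out it was 431 to 674, with 1 gene past the adjusted threshold without m661 and 2 without m658. DESeq2 gave 555 genes and limma-voom 492, with 0 past the adjusted threshold in both. The number of neuropeptide genes past the unadjusted threshold was 5 in the 8 other fits and 2 to 4 with 1 mouse left out. It was 3 without m677, m659 or m660, and 2 without m665 or m658. Of the 8 fits with 1 mouse left out, Cort passed in 8, Cck in 5, Npy and Grp in 4 each, Vip in 3 and Sst in 1. The choice of these genes on the same contrast makes these counts a description alone. The pathway genes past it were 10, 22 with no filter, 18 with 1 surrogate variable and as few as 6 with 1 mouse left out (without m658). The cause of the change with the surrogate variable was not tested. Pairs of neuropeptide genes correlated at an adjusted p-value under 0.05 were 0, or 1 without m665 and 0 without any other mouse. No direction of the 8 genes or of the 8 other genes followed across fits reversed. No paired analysis was possible because mice are not tied to each other by any label (controls were littermates, but no litter is given, and litters shared between the groups are ignored in the fits), and replicate numbers only follow the accession order. Genes with under 30 counts in a mouse, such as Sstr5 and Grpr, have SE too wide to show a change of the size seen in the neuropeptide genes at this depth. The edgeR p-values set the difference between genotypes against the spread among 4 mice per genotype, a spread estimated with the help of all genes tested. The exact permutation p-values are instead over the 8 mice of both genotypes together.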
